A study of Mus musculus with 8 samples.

Results

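The genes described here are targets of the tumour suppressor p53 and members of the apoptosis machinery, above all the Bcl2 family. They were chosen by name, 43 in all, and sorted by role: negative regulators of p53, p53 targets, pro-death and pro-survival Bcl2 relatives, caspases with their activator Apaf1, and inhibitors of apoptosis proteins. Each gene was read by its brightest probe set with 1 gene symbol, which gave 40 measured members among 18193 genes. Trp53 itself, Bax and Gdf15 were not analysed here. RNA came from mouse embryonic stem (ES) cells of the strain label Oct4-Gip at passage 25, taken on day 4 of a lipofection with esiRNA, a pool of short double-stranded RNAs cut from a longer transcript. The treated cells received esiRNA against Ctr9 (4 arrays), a scaffold subunit of the Paf1 complex that travels with RNA polymerase II. The control cells received esiRNA against luciferase (4 arrays), and lipofection and esiRNA are thus shared by both groups. Whether the 4 samples of a treatment were separate cultures is not in the labels, so p-values here measure only how these samples spread, which may be a technical spread. Levels are log2 probe set signals, and a difference, given in log2 units throughout, is the mean of the Ctr9 esiRNA arrays minus that of the luciferase esiRNA arrays.

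p53 is a transcription factor that is kept low by Mdm2, the ubiquitin ligase that marks it for degradation, and by the Mdm2 relative Mdm4, which blocks its activation domain. On damage it switches on genes for growth arrest, repair and death, and Mdm2 is among them, which closes a feedback loop. In the Bcl2 family, BH3-only proteins sense stress and bind the pro-survival members, while Bax, Bak1 and Bok act at membranes. Release of cytochrome c then lets Apaf1 activate Casp9. Mouse ES cells are known for a low threshold for apoptosis.

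p53 binds a pair of elements, each with a core of C, A or T, A or T, and G, whose starts lie 10 bases apart in the standard site. RefSeq promoter windows (GRCm38.p6, 250 bases before to 50 after a gene's start) were searched for that pair of cores, which reads as the same pattern on both strands. The table held 53 windows for 36 of the listed genes. Rrm2b, Zmat3, Trp53inp1, Tnfrsf10b, Perp, Pmaip1 and Bik had no entry. The pair was found in 7 of the 53 windows (13.2%), belonging to 6 genes, against 7.22% of all 32851 windows. Both Aen windows hold the same stretch, which is thus counted more than once. By gene the share was 16.7%, against 8.19% of all genes with a window. These matches are few, and the difference in share was not tested. The 5 measured genes that hold the pair are shown because they include Cdkn1a and Bbc3, textbook p53 targets whose levels are given below. Cdkn1a and Bbc3 have several windows each, and in each gene only the window with the stretch below holds the pair. Capitals mark the cores.
Cdkn1a, chr17:29090923-29090952, plus strand: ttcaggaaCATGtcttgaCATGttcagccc
Bbc3, chr7:16309481-16309510, plus strand: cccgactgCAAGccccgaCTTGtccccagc
Aen, chr7:78895932-78895961, plus strand: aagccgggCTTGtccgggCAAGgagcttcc
Plk2, chr13:110395033-110395062, plus strand: tgctcgctCTTGctcgcaCAAGcgaagcag
Birc3, chr9:7873143-7873172, minus strand: gtaagagcCAAGagccttCAAGtaaaaact
Of these 5 genes, Plk2 passed the test between treatments on its brightest probe set and the other 4 did not. Of the 9 genes listed as p53 regulators or p53 targets that passed, a count without the Bcl2 family, 6 had a window, and 1 of these, Plk2, held the pair. A match is a stretch of letters and was not shown to be bound here.

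Ctr9 esiRNA arrays had lower signal for the p53 inhibitors Mdm2 and Mdm4. Their signal was higher for the BH3-only gene Bcl2l11 and the pro-survival gene Bcl2l1. The textbook p53 targets Cdkn1a and Bbc3 differed by under 0.03 log2 units and did not pass. Other p53 targets did: of 17 measured, a count without Mdm2 and the Bcl2 family, 2 rose and 5 fell (41.2%). Of the 40 members, 7 were higher and 10 lower at a limma adjusted p under 0.05 (Benjamini-Hochberg over all 45037 probe sets, of which 24.9% passed), and 23 did not pass. That is 42.5% of the members, against 30.8% of all 18193 genes read in the same way (15.8% higher and 15.0% lower). The members are bright genes, 38 of them above the median signal of all probe sets. Of these 38 members 44.7% passed, against 42.1% of all genes above that signal (20.9% higher and 21.2% lower), so the share that passed was near that of all genes above this signal. The median difference was -0.0033 over the members and 0.0036 over all genes. No member changed by 2-fold, and the median size of a change that passed was 1.23-fold among members and 1.24-fold among all genes.

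**Figure D1:**
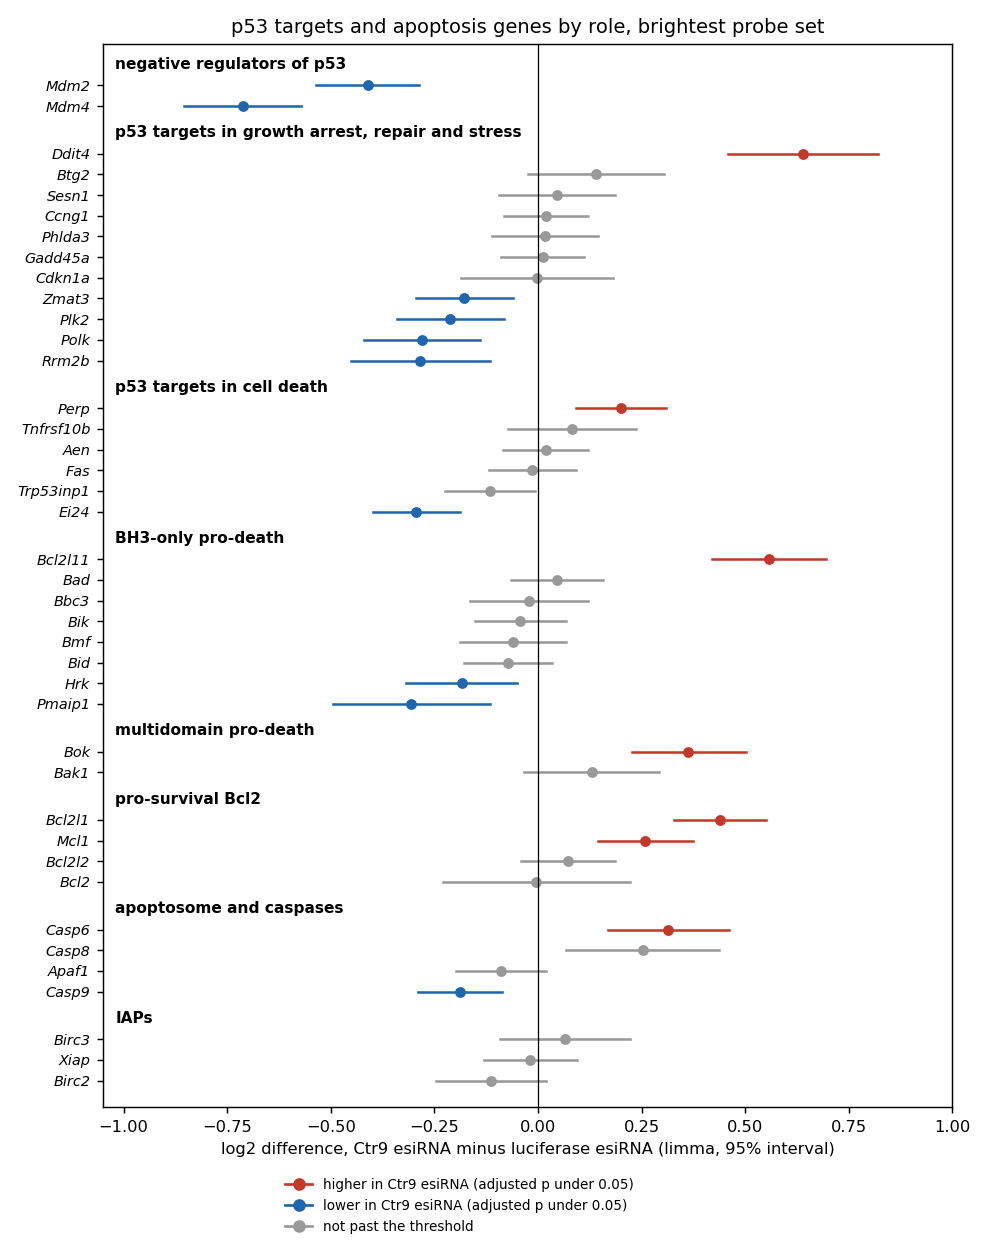
Log2 difference of each of the 40 measured members (points, Ctr9 esiRNA minus luciferase esiRNA) with its 95% limma interval (lines), by role. The 7 red members were higher and the 10 blue ones lower, from Ddit4 at 0.64 to Mdm4 at -0.71; grey members did not pass.

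The arrays behind these values were alike in scale, with upper quartiles of 8.10 to 8.15. Ctr9 itself fell little, if at all. Of its 5 probe sets the brightest averaged 10.11 ± 0.027 in the Ctr9 esiRNA arrays and 10.20 ± 0.058 in the luciferase esiRNA arrays (SD, n = 4 each), and the difference of -0.089 did not pass (exact two-sided permutation p = 0.0857). Another 2 probe sets were lower and 1 was higher past the threshold, so the groups are named by their labels. Luciferase arrays 1 and 2 lay apart from luciferase arrays 3 and 4 on a principal component that held 8.91% of the variance. Without arrays 1 and 2 the members counted 6 higher and 5 lower, and without arrays 3 and 4 they counted 6 higher and 6 lower. ES cell markers were bright in all arrays, and 6 of 10 were lower: their mean level was 12.5 in every Ctr9 esiRNA array and 12.9 in every luciferase esiRNA array. Trophectoderm markers were higher in 8 of 10 cases. Their mean levels were 7.65 to 7.69 in the Ctr9 esiRNA arrays and 6.48 to 6.65 in the luciferase esiRNA arrays. Elf5 and Tfap2c did not pass on their brightest probe sets. Elf5 was dim, at a mean of 4.23 in the Ctr9 esiRNA arrays and 4.18 in the luciferase esiRNA arrays. Tfap2c was bright, at 10.26 and 10.40, and differed by -0.135 (limma adjusted p = 0.319). Of its 3 probe sets, 2 were lower past the threshold. Fibroblast markers were higher in 5 of 12 cases (5.59 to 5.62 against 5.34 to 5.45), with 6 of the 12 below the median signal, and none of 5 haematopoietic markers passed. These shifts accompany every result below, and their part in it was not tested. In bulk RNA, fewer cells of a type and less RNA per cell cannot be told apart. For RNA quality, Gapdh control probes at the 3' end minus those at the 5' end gave -0.034 to 0.0093 in the Ctr9 esiRNA arrays and -0.026 to -0.012 in the luciferase esiRNA arrays.

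Mdm2 and Mdm4, the negative regulators of p53 among the members, were both lower. Mdm4 read 8.71, 8.95, 8.96 and 8.85 in the Ctr9 esiRNA arrays, against 9.57, 9.57, 9.66 and 9.52 in the luciferase esiRNA arrays. All Ctr9 esiRNA arrays lay below all luciferase esiRNA arrays, by more than the spread within either group. Mdm4 fell by 0.71 log2 units (SE 0.064, adjusted p = 2.63e-05). This was the largest difference among the members, a change of the linear signal by -39.0%. Mdm2 read 10.50, 10.72, 10.62 and 10.59 in the Ctr9 esiRNA arrays, against 10.97, 11.03, 11.08 and 10.99 in the luciferase esiRNA arrays, again with no overlap. It fell by 0.41 log2 units (SE 0.056, adjusted p = 0.00042), and its linear signal changed by -24.8%. The second probe set of each gene also passed, at -0.36 (SE 0.052, adjusted p = 0.000623) for Mdm4 and -0.34 (SE 0.051, adjusted p = 0.000815) for Mdm2. The remaining Mdm4 probe sets, both less bright, differed by -0.12 and -0.080, and the remaining Mdm2 probe set, at a signal near 3.67, by -0.072. None of these 3 passed. Both genes kept their call under all 21 other settings tried, with adjusted p-values from 1.01e-08 to 0.00115 for Mdm4 and from 5.85e-07 to 0.00742 for Mdm2.

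The 250 bases before the RefSeq starts of these 2 genes (GRCm38.p6) are shown because both genes were lower and their upstream stretches differ in make-up. Capitals mark CG pairs.
Mdm2, chr10:117710759-117711008, minus strand: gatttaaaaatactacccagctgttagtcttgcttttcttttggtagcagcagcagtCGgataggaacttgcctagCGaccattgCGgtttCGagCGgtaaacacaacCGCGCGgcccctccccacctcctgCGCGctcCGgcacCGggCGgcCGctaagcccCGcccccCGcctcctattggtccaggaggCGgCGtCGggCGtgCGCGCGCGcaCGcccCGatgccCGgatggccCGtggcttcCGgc
Mdm4, chr1:133025417-133025666, minus strand: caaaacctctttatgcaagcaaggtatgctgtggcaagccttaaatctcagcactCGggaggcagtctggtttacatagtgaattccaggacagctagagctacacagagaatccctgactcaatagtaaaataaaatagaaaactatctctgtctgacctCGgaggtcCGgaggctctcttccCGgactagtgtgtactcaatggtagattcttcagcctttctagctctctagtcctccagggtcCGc
Mdm4, chr1:133030588-133030837, minus strand: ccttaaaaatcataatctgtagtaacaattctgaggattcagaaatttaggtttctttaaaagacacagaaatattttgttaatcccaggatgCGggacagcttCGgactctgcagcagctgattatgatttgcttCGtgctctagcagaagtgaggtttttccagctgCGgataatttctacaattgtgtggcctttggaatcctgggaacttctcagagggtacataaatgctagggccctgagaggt
The Mdm2 stretch holds 29 CG pairs and 65.6% G or C. The Mdm4 stretches hold 5 and 4 CG pairs, with 47.2% and 41.6% G or C. The median of all 32851 stretches of this length was 6 CG pairs and 52.4%. None of the 3 holds the pair of p53 cores. The p53 sites known for mouse Mdm2 lie within an intron.

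**Figure D2:**
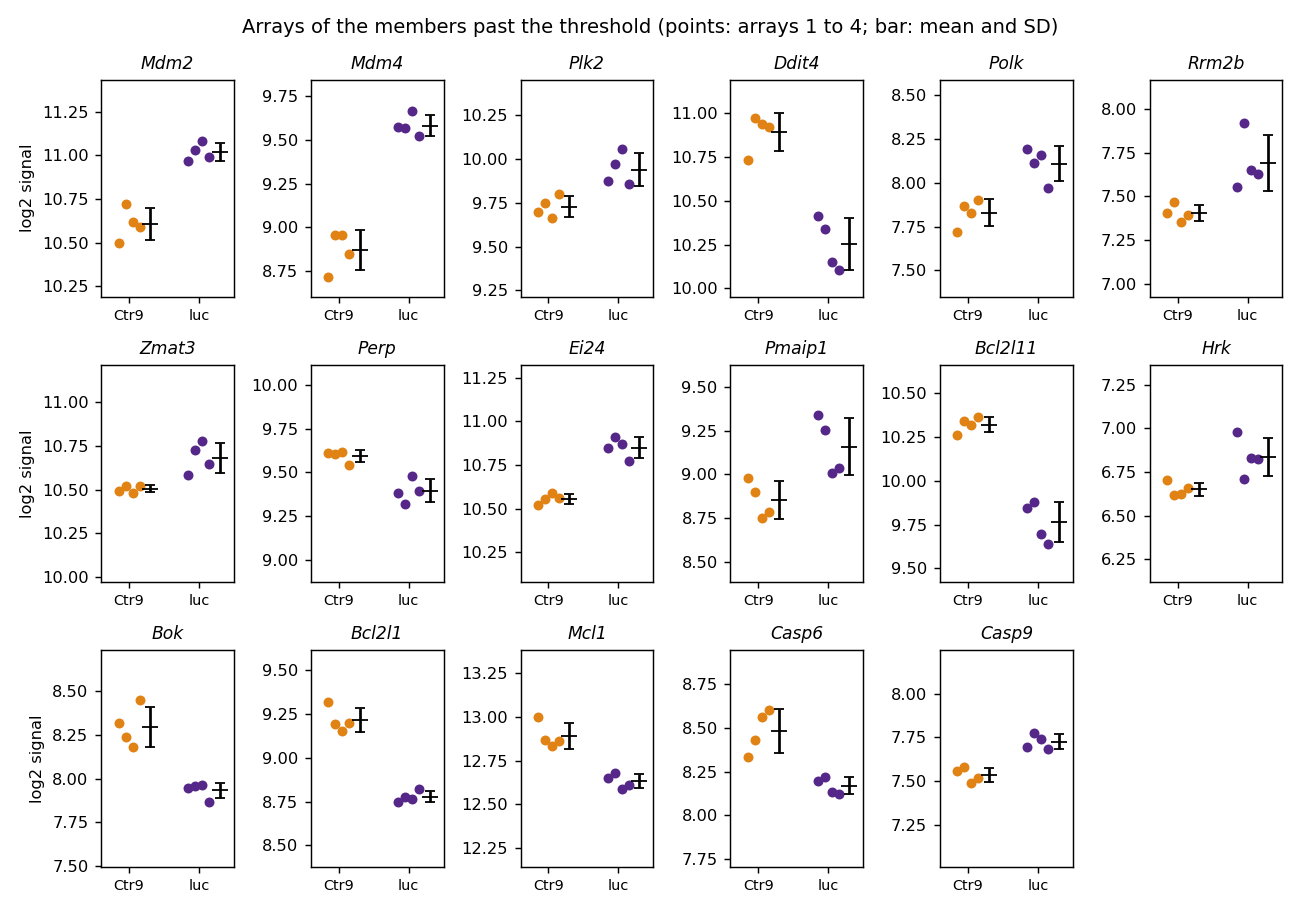
Log2 signal of each array (points, arrays 1 to 4) for the 17 members past the threshold, Ctr9 esiRNA left and luciferase esiRNA (luc) right, with the mean and SD of the 4 arrays. Every panel spans the same log2 range, and in all 17 the groups do not overlap.

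Among the p53 targets for growth arrest, repair and stress, 1 of 11 measured genes rose and 4 fell. That is 45.5%, near the 42.1% of all genes above the median signal, where all 11 lie. Of all genes above that signal, 20.9% rose and 21.2% fell. Cdkn1a, the p21 inhibitor of cyclin-dependent kinases and the standard readout of p53 activity, read 9.49, 9.70, 9.67 and 9.73 in the Ctr9 esiRNA arrays, against 9.79, 9.66, 9.72 and 9.43 in the luciferase esiRNA arrays. The groups overlapped throughout, and the difference was -0.0028 (95% interval -0.19 to 0.18, adjusted p = 0.987). Phlda3, an inhibitor of Akt signalling, differed by 0.017 (95% interval -0.11 to 0.14). Gadd45a, a stress sensor that binds PCNA, differed by 0.011 (95% interval -0.088 to 0.11). Btg2, an antiproliferative regulator of mRNA decay, differed by 0.14 (95% interval -0.024 to 0.30). None of these passed, and no other probe set of Cdkn1a or Btg2 did.

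Ddit4, an inhibitor of mTORC1 that is also induced by hypoxia and other stresses, was the member with the largest increase. It read 10.73, 10.98, 10.94 and 10.92 in the Ctr9 esiRNA arrays, against 10.42, 10.34, 10.15 and 10.10 in the luciferase esiRNA arrays. The groups did not overlap, although luciferase arrays 1 and 2 lay above arrays 3 and 4. Ddit4 rose by 0.64 log2 units (SE 0.081, adjusted p = 0.000273), or 1.56-fold, and passed under all 21 other settings. Of the 5 genes in this role that passed, it alone rose.

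The 4 targets of this role that fell were Polk, Rrm2b, Plk2 and Zmat3. Polk, a translesion DNA polymerase, read 7.72, 7.87, 7.83 and 7.90 in the Ctr9 esiRNA arrays, against 8.19, 8.12, 8.16 and 7.97 in the luciferase esiRNA arrays. The groups did not overlap, and Polk fell by 0.28 log2 units (SE 0.063, adjusted p = 0.00823). Rrm2b, the ribonucleotide reductase subunit that supplies nucleotides for repair, read 7.40, 7.47, 7.36 and 7.39 in the Ctr9 esiRNA arrays, against 7.55, 7.92, 7.65 and 7.63 in the luciferase esiRNA arrays. Luciferase array 2 was the highest of these and no array of 1 group reached into the other. Rrm2b fell by 0.28 log2 units (SE 0.076, adjusted p = 0.0198). The other probe set that passed for it stood at -0.33 (SE 0.078, adjusted p = 0.0103). Plk2, a polo-like kinase of the checkpoint, read 9.70, 9.75, 9.67 and 9.80 in the Ctr9 esiRNA arrays, against 9.87, 9.97, 10.06 and 9.86 in the luciferase esiRNA arrays. The gap between the groups was narrow, and Plk2 fell by 0.21 log2 units (SE 0.058, adjusted p = 0.0237). Zmat3, an RNA-binding zinc finger protein and p53 target, read 10.49, 10.52, 10.48 and 10.52 in the Ctr9 esiRNA arrays, against 10.58, 10.72, 10.78 and 10.65 in the luciferase esiRNA arrays. The groups again lay apart, and Zmat3 fell by 0.18 log2 units (SE 0.052, adjusted p = 0.0314). The calls of Plk2 and Zmat3 ended in 8 and 9 of 21 other settings: both ended without luciferase replicate 2 (adjusted p = 0.0579 and 0.0764) or 3 (0.0620 and 0.0851), and without Ctr9 esiRNA replicate 1 (0.0599 and 0.0671) or 3 (0.0654 and 0.0741). The Zmat3 call also ended without Ctr9 esiRNA replicate 2 (0.0596) or 4 (0.0588). Rrm2b missed narrowly without Ctr9 esiRNA replicate 3 (0.0533) or luciferase arrays 3 and 4 together (0.0515), and Polk missed without luciferase arrays 1 and 2 together (0.0763).

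Of the 6 p53 targets linked to cell death, 1 rose and 1 fell (33.3%, against 42.1% of all genes above the median signal). Ei24, an endoplasmic reticulum protein that binds Bcl2, read 10.52, 10.56, 10.59 and 10.56 in the Ctr9 esiRNA arrays, against 10.85, 10.91, 10.87 and 10.77 in the luciferase esiRNA arrays. Each group was tight and they lay well apart. Ei24 fell by 0.29 log2 units (SE 0.047, adjusted p = 0.00112) and passed under all 21 other settings. Perp, a membrane protein of desmosomes that p53 induces in apoptosis, read 9.61, 9.61, 9.62 and 9.54 in the Ctr9 esiRNA arrays, against 9.38, 9.32, 9.48 and 9.39 in the luciferase esiRNA arrays. It rose by 0.20 log2 units (SE 0.049, adjusted p = 0.0125), a small change past the spread of both groups that ended without luciferase arrays 1 and 2 together (adjusted p = 0.0973). The death receptor gene Fas read below the median signal, near 4.3 in all arrays, and differed by -0.014 (95% interval -0.12 to 0.092). The other death receptor, Tnfrsf10b, read just above that median and differed by 0.083 (95% interval -0.072 to 0.24). Differences of such dim probe sets are compressed and may be understated.

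For 5 members the brightest probe set did not pass while another did, and 3 of these are p53 targets that were lower there. Ccng1, cyclin G1, differed by 0.019 (95% interval -0.081 to 0.12) on its brightest probe set. That probe set averaged 12.41 over the arrays, and the other 2 averaged 12.14 and 11.58. These 2 fell by 0.20 and 0.21 (adjusted p = 0.00893 and 0.0108). Aen, a nuclease that acts in apoptosis, differed by 0.018 (95% interval -0.083 to 0.12) on the brightest of 4 probe sets and by 0.0015 on the second. The third and the fourth fell by 0.37 and 0.43 (adjusted p = 0.000379 and 0.00168). Trp53inp1, a stress protein that promotes p53 phosphorylation, differed by -0.12 (95% interval -0.23 to -0.0083, adjusted p = 0.115) on its brightest probe set, with no overlap between the groups. Its other probe set was -0.22 (SE 0.045, adjusted p = 0.00459). Sesn1, a sestrin that restrains mTORC1, differed by 0.045 (95% interval -0.095 to 0.18) on the brightest of 4 probe sets, while the third was higher, at 0.32 (SE 0.077, adjusted p = 0.0116). The call for these genes depends on the probe set, and the transcripts that each probe set reads were not analysed here.

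**Figure D3:**
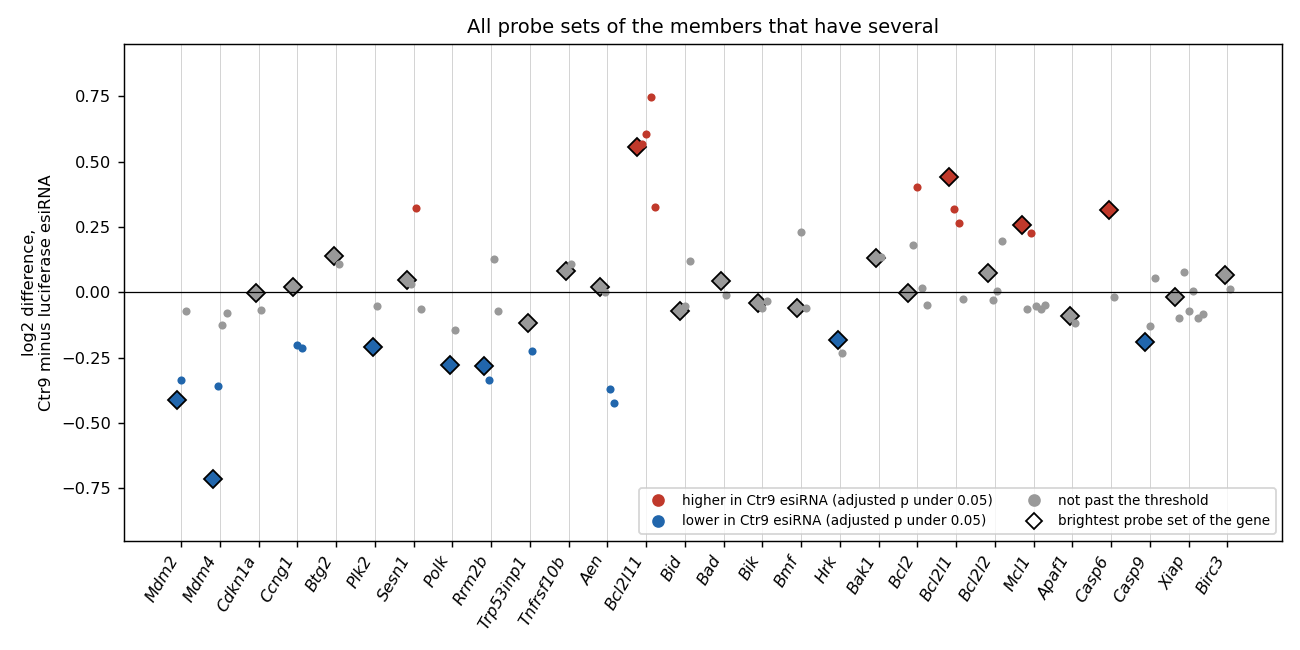
Log2 difference (Ctr9 esiRNA minus luciferase esiRNA) of every probe set of the 28 members that have several; diamonds are the brightest, and the others follow to the right by falling brightness. All 5 Bcl2l11 probe sets are red, whereas Mcl1, Aen, Ccng1 and Bcl2 mix probe sets that passed with ones that did not.

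Across the family, 28 members had several probe sets, and in 15 of them the probe sets differed in call (39.9% of all genes with several probe sets did). In none of the 28 did 1 probe set rise and another fall past the threshold. Of the 11 members with several probe sets that passed on the brightest, 6 had another that passed the same way.

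Among the 8 BH3-only genes, 1 rose and 2 fell (37.5%, against 42.1% of all genes above the median signal). Bcl2l11, which encodes Bim, a potent BH3-only protein that binds all pro-survival relatives, read 10.26, 10.34, 10.32 and 10.36 in the Ctr9 esiRNA arrays, against 9.84, 9.88, 9.69 and 9.64 in the luciferase esiRNA arrays. The Ctr9 esiRNA arrays were tight and lay above all luciferase esiRNA arrays. Bcl2l11 rose by 0.56 log2 units (SE 0.062, adjusted p = 0.000114), or 1.47-fold. All 5 of its probe sets rose, from 0.33 to 0.75, and it was the only member with several probe sets of which all passed in 1 direction. Its adjusted p stayed between 8.51e-08 and 0.00126 over the 21 other settings.

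The BH3-only p53 targets did not follow it. Bbc3, which encodes Puma, read 9.03, 9.21, 9.21 and 9.13 in the Ctr9 esiRNA arrays, against 9.21, 9.11, 9.28 and 9.06 in the luciferase esiRNA arrays. The groups overlapped, with a difference of -0.023 (95% interval -0.17 to 0.12, adjusted p = 0.847). Pmaip1, which encodes Noxa, the partner that neutralises Mcl1, read 8.98, 8.90, 8.75 and 8.79 in the Ctr9 esiRNA arrays, against 9.34, 9.25, 9.01 and 9.04 in the luciferase esiRNA arrays. The lowest luciferase arrays, 3 and 4, lay just above the highest Ctr9 esiRNA array. Pmaip1 fell by 0.31 log2 units (SE 0.085, adjusted p = 0.0243), and the call ended in 5 of 21 settings: without luciferase replicate 1 (adjusted p = 0.0603) or 2 (0.0663), without Ctr9 esiRNA replicate 3 (0.0677) or 4 (0.0636), and without luciferase arrays 1 and 2 together (0.181). Hrk, a BH3-only gene known from dying neurons, read 6.70, 6.62, 6.63 and 6.66 in the Ctr9 esiRNA arrays, against 6.98, 6.71, 6.83 and 6.82 in the luciferase esiRNA arrays. It fell by 0.18 log2 units (SE 0.060, adjusted p = 0.0481), at the edge of the threshold, and the call ended in 14 of 21 settings, among them without any 1 array other than luciferase replicate 2 (adjusted p = 0.0612 to 0.109). The other BH3-only genes did not pass. Bid, which caspase-8 cleaves to link death receptors to mitochondria, differed by -0.072 (95% interval -0.18 to 0.035). Bad, which is held in check by phosphorylation, differed by 0.045 (95% interval -0.066 to 0.16). Bmf, which is tied to the cytoskeleton, differed by -0.061 (95% interval -0.19 to 0.067). Bik differed by -0.042 (95% interval -0.15 to 0.069) with 3 luciferase values, since 1 was empty.

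Of the effectors, Bok rose and Bak1 did not pass. Bok, a multidomain relative of Bax, read 8.32, 8.24, 8.18 and 8.45 in the Ctr9 esiRNA arrays, against 7.95, 7.96, 7.96 and 7.87 in the luciferase esiRNA arrays. The luciferase arrays were tight and the groups lay apart. Bok rose by 0.36 log2 units (SE 0.062, adjusted p = 0.00167), or 1.29-fold, on its only probe set, and passed under all 21 other settings. Bak1, which forms pores in the outer mitochondrial membrane, read 8.17, 8.22, 8.02 and 7.97 in the Ctr9 esiRNA arrays, against 8.06, 7.83, 8.04 and 7.95 in the luciferase esiRNA arrays. Its groups overlapped, at 0.13 (95% interval -0.033 to 0.29, adjusted p = 0.244). The 10 measured pro-death genes of both kinds counted 2 higher and 2 lower, at a median of -0.033. That is 40.0%, against 42.1% of all genes above the median signal.

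Among the 4 pro-survival genes, Bcl2l1 and Mcl1 rose on their brightest probe sets and the other 2 did not pass. Bcl2l1, which encodes Bcl-xL, read 9.32, 9.20, 9.15 and 9.20 in the Ctr9 esiRNA arrays, against 8.75, 8.78, 8.77 and 8.82 in the luciferase esiRNA arrays. The gap between the groups exceeded the spread of either. Bcl2l1 rose by 0.44 log2 units (SE 0.050, adjusted p = 0.000124), or 1.36-fold. The second and the third probe set rose by 0.32 and 0.26 (adjusted p = 0.00449 and 0.0027), the dimmest of its 4 read near background, and the gene passed under all 21 other settings. Bcl2l11 and Bcl2l1, a pro-death and a pro-survival gene, were thus both higher in the same 4 arrays.

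Mcl1, a short-lived pro-survival protein that early mouse embryos need, read 13.00, 12.87, 12.84 and 12.86 in the Ctr9 esiRNA arrays, against 12.65, 12.68, 12.59 and 12.61 in the luciferase esiRNA arrays. It rose by 0.26 log2 units (SE 0.051, adjusted p = 0.00414) on its brightest probe set, with no overlap. Of its 6 probe sets the third also rose, by 0.23 (adjusted p = 0.0148). The other 4, all bright, lay between -0.065 and -0.048 and did not pass. With the mean of all 6 the difference was 0.043 and did not pass (adjusted p = 0.389). Bcl2, the founding member, was dim, at 5.93, 5.84, 5.60 and 5.61 in the Ctr9 esiRNA arrays, against 5.74, 5.53, 5.76 and 5.96 in the luciferase esiRNA arrays. Its brightest probe set showed -0.0039 (95% interval -0.23 to 0.22, adjusted p = 0.985), and the third of its 5 probe sets, dimmer still, rose by 0.40 (adjusted p = 0.00143). Bcl2l2, which encodes Bcl-w, differed by 0.073 (95% interval -0.042 to 0.19).

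Downstream, 1 of 4 genes of the apoptosome and caspases rose and 1 fell. Casp6, an executioner caspase, read 8.33, 8.43, 8.56 and 8.61 in the Ctr9 esiRNA arrays, against 8.20, 8.22, 8.13 and 8.12 in the luciferase esiRNA arrays. It rose by 0.31 log2 units (SE 0.065, adjusted p = 0.00533), or 1.24-fold, with no overlap, and missed only without luciferase arrays 3 and 4 together (adjusted p = 0.0591). Casp9, the initiator caspase of the mitochondrial pathway, read 7.56, 7.58, 7.49 and 7.52 in the Ctr9 esiRNA arrays, against 7.70, 7.77, 7.74 and 7.68 in the luciferase esiRNA arrays. It fell by 0.19 log2 units (SE 0.046, adjusted p = 0.0122), but the call ended with the mean of its 3 probe sets (-0.088, adjusted p = 0.104) and without luciferase arrays 1 and 2 together (0.0684). Casp8, the initiator of the death receptor pathway, read 6.93, 7.22, 6.88 and 7.04 in the Ctr9 esiRNA arrays, against 6.84, 6.67, 6.67 and 6.88 in the luciferase esiRNA arrays. Its groups overlapped slightly, and the difference of 0.25 (95% interval 0.067 to 0.44, adjusted p = 0.0509) missed the threshold, which it passed in 10 of 21 other settings (adjusted p = 0.0233 to 0.0452). Apaf1, the scaffold of the apoptosome, averaged 8.89 ± 0.0068 in the Ctr9 esiRNA arrays and 8.98 ± 0.074 in the luciferase esiRNA arrays (SD, n = 4 each). The Ctr9 esiRNA arrays lay just under the luciferase esiRNA arrays, at -0.090 (95% interval -0.20 to 0.019, adjusted p = 0.227).

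None of the 3 inhibitors of apoptosis proteins passed. Xiap, which blocks caspases directly, read 9.94, 9.89, 9.89 and 9.89 in the Ctr9 esiRNA arrays, against 9.95, 9.95, 9.98 and 9.81 in the luciferase esiRNA arrays. Its groups overlapped, at -0.018 (95% interval -0.13 to 0.093, adjusted p = 0.844), and none of its 7 probe sets passed. Birc2 and Birc3, ubiquitin ligases of TNF receptor signalling, differed by -0.11 (95% interval -0.24 to 0.019) and 0.066 (95% interval -0.091 to 0.22).

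Groups did not overlap for 20 of the 40 members, while 36.6% of all genes had groups that did not overlap. These figures are not matched for signal: most members are bright, and the share among all genes above the median signal was not computed. The 20 members are the 17 that passed together with Trp53inp1, Apaf1 and Bik. Bik counts there on 3 luciferase values, each at 7.0098, just above the highest Ctr9 esiRNA array at 7.0054. For the 23 members that did not pass, differences ran from -0.12 to 0.25, and their 95% intervals reached from -0.24 at the lowest to 0.44 at the highest.

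The other genes of the pathway were read from 3 further lists. Of 25 genes upstream of p53, 6 rose and 6 fell (48.0%), at a median of -0.068. Trp53bp1, a damage response scaffold, rose most, at 0.55 (SE 0.045), and the p53 partner gene Trp53bp2 rose as well, at 0.22 (SE 0.046). So did Mre11a at 0.22 (SE 0.048) and Nbn at 0.23 (SE 0.049), which encode parts of the break-sensing MRN complex. The gene of its remaining part, Rad50, differed by 0.019 (95% interval -0.13 to 0.17) and did not pass. Among other negative regulators of p53 in this list, the ubiquitin ligase gene Cop1 differed by -0.074 (95% interval -0.17 to 0.023) and Ppp1r13l, an inhibitory p53 binding protein, by 0.079 (95% interval -0.020 to 0.18), and neither passed, while the deacetylase gene Sirt1 fell, at -0.30 (SE 0.070). Rad50, Cop1, Ppp1r13l and Sirt1 were named after their values were seen. The damage kinases Prkdc at -0.58 (SE 0.063) and Atr at -0.35 (SE 0.042) fell, as did the histone variant H2ax at -0.26 (SE 0.044) and the p53 ubiquitin ligase Rchy1 at -0.25 (SE 0.050). The Mre11a probe set of largest variance fell, by 0.34, so its direction depends on the probe set. Of the Trp53bp1 probe sets 2 of 6 passed, and of the Trp53bp2 probe sets 1 of 2. For Ppp1r13l, 1 of 4 probe sets, not the brightest, was higher past the threshold. Without luciferase arrays 3 and 4 together the calls of Mre11a and Nbn ended (adjusted p = 0.0579 and 0.0609), and the Atr probe set of largest variance did not pass (adjusted p = 0.0936).

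Of 29 other measured p53 targets, 5 rose and 10 fell (51.7%), at a median of -0.079. Ephx1, an epoxide hydrolase, fell most, at -1.19 (SE 0.072), followed among the named genes by Tigar, a regulator of glycolysis, at -0.52 (SE 0.064), the efflux pump gene Abcb1a at -0.41 (SE 0.063) and the spindle protein gene Psrc1 at -0.34 (SE 0.042). The phosphatase gene Ptpn14 at 0.94 (SE 0.098), the peptide transporter gene Tap1 at 0.69 (SE 0.089), the epithelial 14-3-3 gene Sfn at 0.60 (SE 0.041) and the ubiquitin ligase gene Trim32 at 0.57 (SE 0.094) rose. Of the Tap1 probe sets 1 of 4 passed, and of the Psrc1 probe sets 2 of 3.

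Of 35 other genes of the apoptosis machinery, 6 rose and 4 fell (28.6%), at a median of 0.034. Bnip2 at 0.44 (SE 0.046), cytochrome c (Cycs) at 0.25 (SE 0.046), Birc6 at 0.20 (SE 0.041) and the adaptor gene Traf2 at 0.21 (SE 0.054) rose. The adaptor gene Cradd, which recruits caspase-2, at -0.70 (SE 0.057), Parp1 at -0.22 (SE 0.046), Dap3 at -0.23 (SE 0.051) and the chaperone regulator gene Bag4 at -0.21 (SE 0.059) fell. The shares of these 3 lists stand against 42.1% of genes above the median signal, which is where nearly all of their members lie. The Bag4 call ended without any 1 of luciferase replicates 1 to 3 or of Ctr9 esiRNA replicates 1 and 3 (adjusted p = 0.0598 to 0.0736), the Traf2 call without luciferase arrays 1 and 2 together (0.113) and the Dap3 call without luciferase arrays 3 and 4 together (0.0642). The probe sets of largest variance stood at -0.60 for Birc6, -0.16 for Cycs and -0.078 for Parp1. Birc6 had probe sets past the threshold in both directions, so its direction depends on the probe set. The Cycs value of -0.16 did not pass. Bnip2 passed on 3 of 8 probe sets, Cycs on 1 of 4, Parp1 on 2 of 4 and Bag4 on 1 of 3.

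**Figure D4:**
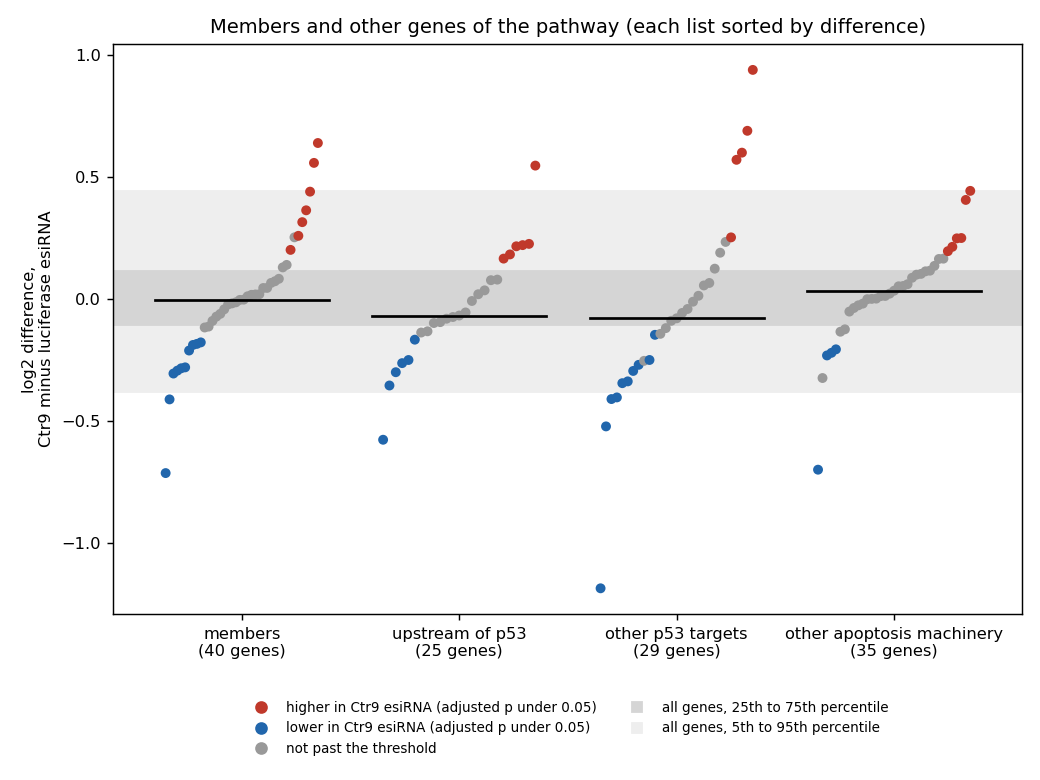
Log2 difference (Ctr9 esiRNA minus luciferase esiRNA) of the members and of 3 other lists of the pathway, each sorted, with the list median as a black line. Grey bands give the 25th to 75th and the 5th to 95th percentile of all genes. Most genes of every list lie inside the wider band, and Ephx1 and Ptpn14 reach farthest out.

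Over the 21 other settings, 7 of the 17 members that passed did so in every one: Mdm2, Mdm4, Ddit4, Ei24, Bcl2l11, Bok and Bcl2l1. Ddit4, Ei24 and Bok have 1 probe set each, so the settings of probe set choice read the same values for them. Of the 17, 12 kept their call without each of the 8 arrays in turn, and the 5 that did not were Plk2, Rrm2b, Zmat3, Pmaip1 and Hrk, all of them lower. The count of lower members therefore depended on the arrays taken, from 5 to 9 when 1 array was left out, while that of higher members stayed at 7 or 8. The lowest count, 5, was that without Ctr9 esiRNA replicate 3.

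**Figure D5:**
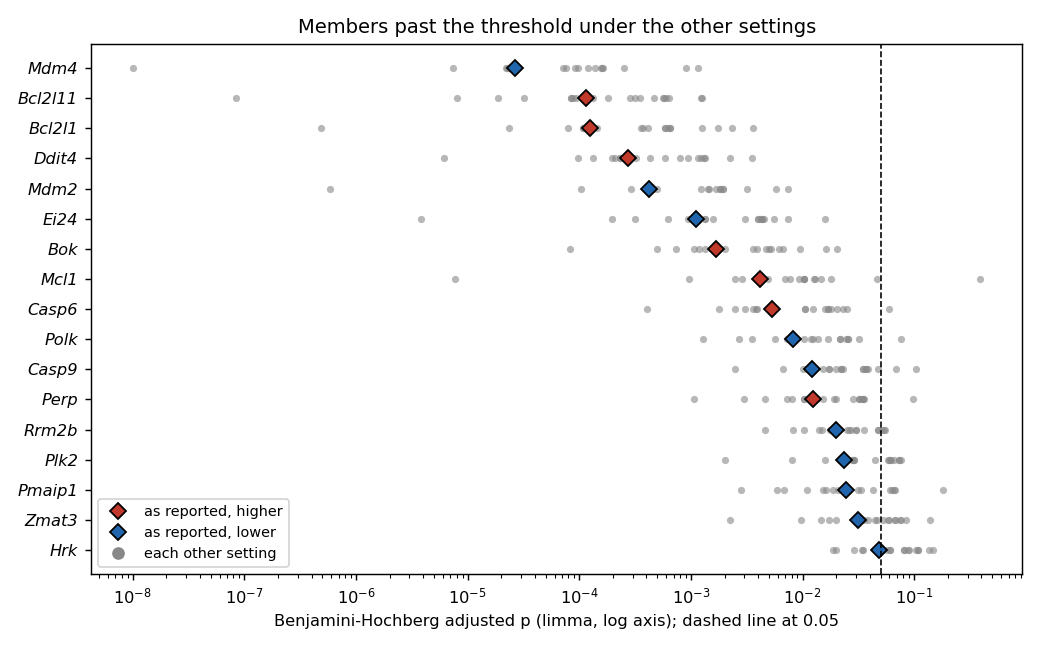
Limma adjusted p of the 17 members past the threshold, as reported (diamonds, red higher and blue lower) and under each of 21 other settings (grey points), on a log axis with the threshold of 0.05 dashed. The 7 genes at the top, down to Bok, stay left of the line in every setting, and Hrk lies on it.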

How the data were processed

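RNA from 8 samples was measured on one-colour Affymetrix arrays after DNase treatment and biotin labelling, per the labels' protocols. The authors deposited log2 signals per probe set. The submitters' processing notes name GCOS 1.4 and RMA, whose settings are not stated there. RMA compresses differences of low signals and would hide a change shared by all genes. Precision is limited by having 4 arrays in a group.

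The 45101 probe sets include 64 controls, which were left out. The other 45037 were compared with limma 3.58.1 in R 4.3.3 (lmFit, then eBayes with a constant prior). The p-values were adjusted by Benjamini-Hochberg over all 45037 and called under 0.05. The fit was checked on simulated data with 50 changes planted at each of several sizes. It found 2% of those of 0.2 log2 units, 34% of 0.3, 78% of 0.5 and 94% of 1. Of its 114 calls 10 were false. The simulation held far fewer changes than passed in these data, so its rates need not apply here. SE and 95% intervals are limma's. The tested part has 456 empty values, at most 1 in a probe set, which were left empty. Symbols are those of the platform annotation (34945 probe sets with 1 symbol, 932 with several, 9160 unnamed here). Named are all members by role, with every array for those past the threshold and for a fixed set of central genes, and up to 4 genes per direction of each pathway list by smallest adjusted p. Members and lists were chosen with earlier results of these data known. Alternatives were filters, scalings, priors, array weights, the replicate block, probe set choice, thresholds and leaving out arrays. Figures were drawn with matplotlib 3.10.9.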

Additional observations from a re-analysis of the deposited data

Results flagged for a closer look

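In 5 of 82 groups of 4 arrays, 1 array lay far from the other 3 by Dixon's test at the 95% level, and chance gives about 1 in 20. For the luciferase esiRNA arrays, replicate 4 was the far one for Btg2 (8.95, the nearest at 9.19), for Bad (7.55, the nearest at 7.44) and for Bok (7.87, the nearest at 7.95). For the Ctr9 esiRNA arrays, replicate 4 was far for Perp (9.54, the nearest at 9.61) and replicate 1 for Xiap (9.94, the nearest at 9.89). Without the far array, Bok and Perp stayed past the threshold and the other 3 genes stayed on the other side of it.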

How the results depend on the processing

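Of 837 values recomputed for the 40 members, 771 kept their side of the threshold, 45 lost a call and 15 gained one. Another 6 passed in a direction opposite to that of the main difference. These belong to Ccng1, Aen and Bcl2, whose main differences had not passed, so no member's call changed sign. The count of lower members, 10, became 5 without luciferase arrays 1 and 2, 6 without luciferase arrays 3 and 4 (both chosen after seeing the data), 4 at an adjusted p under 0.01 and 6 with a change of at least 1.2-fold. Leaving out 1 array at a time gave 5 to 9 lower and 7 to 8 higher members, 21.2% to 22.5% of all probe sets, and Ctr9 differences from -0.11 to -0.066. The share of all probe sets, 24.9%, became 50.1% among those above the median signal, 15.5% at an adjusted p under 0.01 and 16.2% with a change of at least 1.2-fold. With probe sets averaged per gene, Ccng1 (-0.13), Aen (-0.19), Bcl2 (0.11), Mre11a (-0.061) and Birc6 (-0.13) turned direction, and Ctr9 stood at 0.027, not past the threshold. With the probe set of largest variance, Ccng1 (-0.21), Aen (-0.43), Bcl2 (0.40), Mre11a (-0.34), Cycs (-0.16) and Birc6 (-0.60) did; these settings read other probe sets. With the replicate number as a block, 7 members were higher and 7 lower, and 21.7% of all probe sets passed; Plk2, Zmat3 and Hrk lost their calls (adjusted p = 0.0612, 0.0674 and 0.0518) and no other member did. Arrays with the same number did not deviate together (correlations of -0.077 to 0.062), so they share only a number. Signals near background limit Fas, Tnfrsf10b and Bcl2, whose changes could be compressed.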
